A study of Mus musculus with 4 samples.

Results

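The 41 genes described here code for lysosomal enzymes and lysosomal membrane proteins. They were chosen by name, as the rows of the gene table whose symbol stands on a list, and make up 41 of the 31054 genes in the table. No measured value entered the choice. By role they are 11 glycosidases (Glb1, Hexa, Gaa, Gusb, Gla, Idua, Neu1, Man2b1, Manba, Naglu, Fuca1), 5 sulfatases (Galns, Ids, Arsa, Arsb, Sgsh), 8 enzymes or binding proteins of lipid breakdown (Asah1, Smpd1, Lipa, Ppt1, Psap, Gm2a, Npc1, Npc2), 9 cysteine proteases (Ctsb, Ctsc, Ctsf, Ctsh, Ctsk, Ctsl, Ctss, Ctsz, Lgmn), 3 other proteases (Ctsa, Ctsd, Tpp1) and 5 membrane proteins (Lamp1, Lamp2, Cd63, Cd68, Scarb2).

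The lysosome is the acidic compartment in which cells take apart material they have engulfed or set aside by autophagy, and each hydrolase cleaves one kind of bond in sugars, sulfated polymers, lipids or proteins. Macrophages, which clear dead adipocytes and their lipid from fat tissue, are known for a large lysosomal compartment, and mast cells keep lysosome-related secretory granules. Glb1 codes for the beta-galactosidase whose activity, stained at a suboptimal pH, is the classical histochemical mark of senescent cells.

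The cells came from the gonadal fat of 18-month-old male p16-CreERT2/R26-LSL-tdTomato mice, in which tamoxifen lets a Cre driven by p16 switch on tdTomato (Tom) for good. Stromal vascular cells were sorted into 4 libraries. Where 4 values stand in a row, the first pair is from Tom+ and then Tom- cells labelled CD45-, and the second pair from Tom+ and then Tom- cells labelled CD45+. All 4 groups shared genotype, age and tamoxifen, and there was 1 library per group, so that no library repeats another and no test between groups was made. The reporter marks cells in which the p16 promoter was active while tamoxifen was present, and the labels do not give the number of animals behind a library.

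After filtering, 3886, 3674, 1927 and 4391 cells remained, 13878 in all, with a median of 18331 to 19516 unique molecular identifiers (UMIs) per cell. Levels of tdTomato went with the labels, at 713 and 714 counts per 1000000 UMIs (CPM) in the Tom+ libraries and 15.8 and 18.7 CPM in the Tom- libraries. The CD45 labels did not separate leukocytes. Ptprc, which codes for CD45, was at 217, 157, 223 and 188 CPM, and 68.7%, 36.8%, 66.4% and 41.4% of cells fell in leukocyte classes, so that "CD45-" and "CD45+" are names of libraries here. Libraries also shared cell barcodes: 4394 between the 2 Tom- libraries, 26 between the 2 Tom+ libraries and 227 to 1134 for the other pairs. Among the cells kept, 40 barcodes stood in 2 libraries. A larger number of kept cells, 605, 1426, 220 and 1304, had a barcode that also stood among the deposited barcodes of another library. Leaving out all shared barcodes removes every one of these cells. Members that pass the rule below on one side only, with or without the shared barcodes, are named in each comparison. Immunoglobulin transcripts made up 2.94% and 2.93% of macrophage UMIs in the Tom+ libraries against 0.204% and 0.172% in the Tom- libraries, and the source of these transcripts was not tested.

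Of 29 clusters, built without the 41 genes and without the lists of related genes used below, 22 took a class name from fixed markers, and each name stands for cells like that class by its markers. Macrophages (728, 520, 373 and 662 cells) held 3 kinds. Lipid-associated macrophages (389, 165, 182 and 212 cells) had Gpnmb and Trem2 among their leading genes. Resident macrophages (163, 40, 99 and 63 cells) were highest in Timd4, Vsig4, Marco and Lyve1. Arg1-high macrophages (176, 315, 92 and 387 cells) were led by Arg1. Of the fixed markers of lipid-associated macrophages, Gpnmb, Trem2, Lpl, Fabp5 and Plin2 were highest in that kind. Spp1 (1118 CPM against 1506 in resident and 4566 in Arg1-high macrophages) and Cd9 (395 against 432 and 988 CPM) were lowest there. The kinds grade into each other: Arg1 stood at 2910 CPM in resident and 5592 CPM in Arg1-high macrophages. Adipose progenitor cells (APCs) numbered 265, 1536, 108 and 1717, plasma cells 846, 40, 430 and 58, and mast cells 360, 38, 172 and 46.

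Genes of lysosomal proteins are known targets of TFEB, TFE3 and MITF, which bind an E-box with the letters TCACGTG. These letters, on either strand, stood in the promoter window (250 bases before to 50 after the start) of 10 of the 36 members with a window (27.8%), against 4.29% of 27025 genes. The shorter CACGTG, which it contains, stood in 12 of 36 (33.3%, against 8.09% of all genes), and the palindrome TCACGTGA in 3 of 36 (8.33%, against 1.12%). Of the members with a window, 5 of the 17 that were higher in macrophages than in APCs and 5 of the 19 others held TCACGTG. The windows shown are those of Glb1, Gaa, Lgmn and Lamp1. Gaa had its highest class mean in APCs, and Glb1, Lgmn and Lamp1 had theirs in macrophages. The windows are printed with the letters in capitals (TCACGTG, or CACGTGA where it reads on the other strand). Each is 60 bases long, 5′ to 3′ on the gene's strand (RefSeq, GRCm38.p6). They lie at chr9:114401003-114401062 on the plus strand for Glb1, chr11:119267796-119267855 on the plus strand for Gaa, chr12:102439109-102439168 on the minus strand for Lgmn and chr8:13159101-13159160 on the plus strand for Lamp1, none overlapping an annotated exon. Those of Glb1, Gaa and Lamp1 lie upstream of the gene in the GENCODE annotation too, while that of Lgmn lies inside the longer span which that annotation gives the gene, between exons.
Glb1: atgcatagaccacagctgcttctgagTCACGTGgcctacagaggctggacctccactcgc
Gaa: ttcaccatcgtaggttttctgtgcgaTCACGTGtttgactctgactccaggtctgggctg
Lgmn: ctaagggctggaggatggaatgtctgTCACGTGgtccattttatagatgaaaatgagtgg
Lamp1: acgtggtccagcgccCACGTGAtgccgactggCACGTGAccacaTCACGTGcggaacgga
The letters stood 49 bases before the RefSeq start in Glb1, 141 in Gaa, 50 in Lgmn and, at the nearest of 3 places, 16 in Lamp1. A match is a description of the letters and says nothing of binding in these cells.

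Macrophages gave the 41 genes the largest share of their transcripts. Together the members took 3.95%, 3.17%, 3.82% and 3.28% of macrophage UMIs, against 1.74%, 1.76%, 1.53% and 1.74% in monocytes, 1.02%, 1.01%, 0.927% and 1.03% in APCs and 0.676%, 0.731%, 0.669% and 0.677% in mast cells. The order of these classes was the same in all 4 libraries, though the 1.53% of monocytes came from 21 cells. Plasma cells stood at 0.231%, 0.238%, 0.220% and 0.219% on all UMIs. Once immunoglobulin genes, 45.4% to 52.3% of their UMIs, were left out of the total, they stood at 0.484%, 0.436%, 0.449% and 0.403%, above T, NK and innate lymphoid cells (0.353%, 0.299%, 0.299% and 0.272%) and B cells (0.423%, 0.359%, 0.388% and 0.365%). Psap, the precursor of the saposins that present lipids to hydrolases, and the proteases Ctsb and Ctsd carried 49.0% to 52.6% of the members' UMIs in macrophages, and the other 38 members alone still took 1.62% to 1.89% of macrophage UMIs against 0.714% to 0.792% in APCs.

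Gene by gene over the 8 classes with at least 30 cells in every library, 25 of 41 members had their highest mean level in macrophages, where 15.6% of 10535 genes did. Without immunoglobulin genes in the total the count was 23 of 41, against 14.2% of 10670 genes. APCs led for 7 (Gaa, Naglu, Ctsf, Ctsh, Ctsk, Lamp2 and Scarb2), mast cells for 4 (Ids, Sgsh, Tpp1 and Cd63), mesothelial cells for 4 (Manba, Fuca1, Arsb and Smpd1) and blood endothelial cells for Arsa. The share of all genes led by these classes was not counted, so these counts only list where members were highest. Plasma cells were lowest for 25 of 41, near their share of all genes (63.7%). T, NK and innate lymphoid cells and mast cells were lowest for 5 each, and their shares of all genes were not counted. The place of plasma cells also moved with the scaling: without immunoglobulin genes they were lowest for 12 of 41 members, against 31.8% of all genes. The ratio of the highest to the lowest class mean ran from 1.80 for Ppt1 to 127 for Cd63. Arsb, the sulfatase of dermatan and chondroitin sulfate, stood at 231, 252, 172 and 239 CPM in mesothelial cells against 44.1, 59.5, 40.9 and 54.4 in macrophages. Its lowest mesothelial library was above its highest macrophage library, but mesothelial cells were its highest class and such separation was not counted over all genes.

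**Figure D1:**
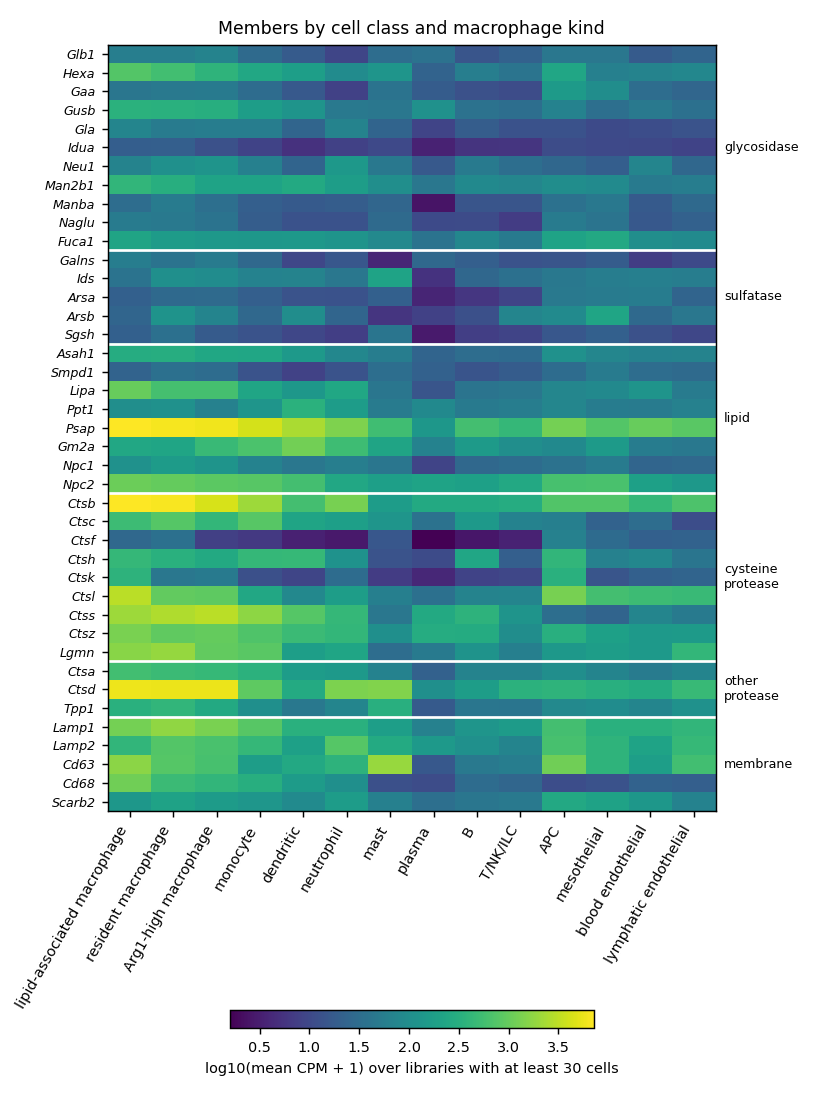
Mean level of each of the 41 members (rows, by role) in macrophage kinds and other classes (columns), as log10 of the mean CPM + 1 over libraries with at least 30 cells of the class. Psap, Ctsb and Ctsd are brightest in the 3 macrophage kinds, Ids and Cd63 stand out in mast cells, Arsb in mesothelial cells, and the plasma column, on all UMIs, is dark.

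Against APCs, 21 of the 41 members were at least 1.5-fold higher in macrophages in each of the 4 libraries and 4 were at least 1.5-fold lower. Of 9658 genes tested, those with a mean of at least 5 CPM over both sides, 21.6% were higher by that rule and 24.5% were lower. The median log2 ratio of the members was 1.28, 1.07, 1.26 and 1.08, while that of all genes lay between -0.02 and 0.02. Lipid enzymes gave 5 of 8 higher and the 3 other proteases all did, whereas 5 of 11 glycosidases, 5 of 9 cysteine proteases, 2 of 5 membrane proteins and 1 of 5 sulfatases were higher.

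The widest gap was that of Ctss, the protease that trims the invariant chain for antigen presentation, at 2493, 2549, 2311 and 2498 CPM in macrophages and 66.1, 16.9, 30.99 and 14.1 CPM in APCs. Cd68, the macrophage member of the LAMP family, followed with 911, 687, 877 and 680.1 CPM against 20.8, 6.18, 9.59 and 6.16 CPM. The log2 ratios were 5.24 to 7.47 for Ctss and 5.45 to 6.80 for Cd68. Ctsd, the main aspartic protease of lysosomes, stood at 6318, 4502, 6162 and 4858 CPM against 435, 372, 358 and 372 CPM, a 12.1 to 17.2-fold ratio. Lipa, the acid lipase that frees cholesterol and fatty acids from their esters, was 10.2 to 12.5-fold higher, at 898, 722, 891 and 756 CPM against 78.7, 69.5, 71.2 and 74.1 CPM. Lgmn, the asparaginyl endopeptidase that matures other cathepsins, was 9.19 to 11.8-fold higher, at 1543, 1207, 1539.9 and 1277 CPM against 166, 131, 131 and 135 CPM. Ctsc, the activator of granule serine proteases, stood at 541, 473, 556 and 476 CPM against 70.6, 54.99, 59.8 and 48.7 CPM. Ctsb, another cysteine protease, stood at 6788, 5303, 6591 and 5461 CPM against 817, 761, 649 and 737 CPM. Psap stood at 7461, 5707, 7345 and 6070.3 CPM against 1337, 1281, 1124 and 1257 CPM. In none of these 8 genes did a macrophage library overlap an APC library. They were named for the largest ratios, though, and overlap was not counted over all genes. Each role also held members with small or opposite ratios, such as Smpd1 (mean log2 ratio -0.16) among the lipid enzymes and Scarb2 (-0.73), the receptor that carries glucocerebrosidase, among the membrane proteins. Gla, the alpha-galactosidase, led the glycosidases with log2 ratios of 2.61, 2.33, 2.40 and 2.26, and Galns, which desulfates keratan and chondroitin sulfate, led the sulfatases at 1.95, 1.82, 1.81 and 2.06. For Ctss and Cd68 in APCs, the macrophage markers summed to 419, 174, 206 and 173 CPM, with none of the 10 at 0, and the part of macrophage RNA in these APC levels was not tested.

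Another 4 members went the other way in every library. Gaa, which breaks down lysosomal glycogen, stood at 144, 164, 156 and 161 CPM in APCs and 44.4, 42.6, 47.9 and 40.3 CPM in macrophages, 3.24 to 4.01-fold lower in the latter. Ctsf, a cysteine protease of the invariant chain, was 2.34 to 4.42-fold lower in macrophages, at 24.9, 16.3, 22.7 and 15.6 CPM against 67.8, 66.7, 53.1 and 68.9 CPM. Arsa, the sulfatase of sulfatide, stood at 44.95, 50.5, 40.2 and 51.1 CPM in APCs and 22.3, 24.3, 23.4 and 24.9 CPM in macrophages. Arsb stood at 89.9, 89.9, 80.1 and 88.3 CPM in APCs, so it was 1.51 to 2.04-fold lower in macrophages. It dropped out of the count under 5 of 16 alternatives. These were marked doublets kept, a looser barcode filter, 4000 variable genes, equal weight per cell and all shared barcodes left out. In the last case Ctsk and Scarb2 were lower in macrophages in every library. APCs were not uniformly low in the set: Ctsk, the collagen-degrading cathepsin of osteoclasts, stood at 327, 357, 284 and 375 CPM in APCs and 231, 172, 264 and 158 CPM in macrophages, and Cd63, a tetraspanin of late endosomes, at 1144, 1152, 1133 and 1201 CPM and 1353, 1003, 1298 and 1035 CPM.

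Related lysosomal genes were compared in the same way. All 15 tested genes of the proton pump that acidifies lysosomes, the v-ATPase, were at least 1.5-fold higher in macrophages than in APCs in every library, from Atp6v0d2 (mean log2 ratio 6.68) to Atp6v1h (0.98). Of other lysosomal enzymes 10 of 14 were higher and 1 lower, from Galc (3.45) to Aga (-0.87). Transporters and channels gave 9 of 12 higher and 1 lower, from Laptm5 (6.25) to Laptm4a (-1.71), and sorting genes 4 of 7 higher and 1 lower, from Grn (2.23) to Gnptg (-1.16). Tfeb (2.08), Tfe3 and Mitf (0.73) were all higher in macrophages, and of 2 cystatins tested Cstb was higher (1.86) while Cst3 had a mean log2 ratio of -0.07.

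Against mast cells, 27 of 41 members were at least 1.5-fold higher in macrophages in every library and 2 were lower, where 20.7% and 17.1% of 8554 genes met these rules. The median log2 ratio of the members was 1.99, 1.62, 1.73 and 1.77. Mast cells held little of several cysteine proteases: Ctss stood at 62.2, 32.9, 57.3 and 23.9 CPM and Ctsk at 3.05, 3.66, 3.67 and 13.6 CPM in them, with macrophage to mast log2 ratios of 5.32 to 6.71 and 3.53 to 6.24. Ctsk had 1 UMI in the Tom- mast cells labelled CD45-, where the interval of its ratio was 3.08 to 10.86. In mast cells Cd68 stood at 17.6, 7.32, 13.2 and 6.82 CPM, with 2 UMIs in each Tom- library and intervals there of 4.70 to 9.60 and 4.79 to 9.68. Ctsb stood at 199, 132, 205 and 116 CPM in them, Lgmn at 49.6, 29.3, 26.5 and 17.1 CPM and Ctsl at 85.9, 43.9, 43.4 and 61.4 CPM, each at least 25.5-fold below its macrophage level in every library. Ctsh at 11.8, 18.3, 9.55 and 10.2 CPM and Lipa at 34.7, 58.6, 32.3 and 40.9 CPM were lower than in macrophages by log2 ratios of 4.20 to 5.26 and 3.62 to 4.78, and Ctsh had 3 UMIs in the Tom- library labelled CD45+ (interval 3.46 to 7.29). Gusb, the beta-glucuronidase, led the glycosidases at 2.73 to 3.01, Arsb the sulfatases with a mean of 3.87 and Ctsa, the protein that protects beta-galactosidase, the other proteases with a mean of 2.96. Gaa (0.22), Smpd1 (-0.22), Ctsf (0.54) and Tpp1 (-0.05) had the lowest means of their roles.

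Few members were higher in mast cells: 2 of 41 were lower in macrophages in every library, against 17.1% of 8554 genes. Ids, which removes sulfate from iduronate in heparan and dermatan sulfate, stood at 187, 253, 186 and 215 CPM in mast cells and 61.1, 70.4, 55.2 and 78.1 CPM in macrophages, 2.75 to 3.59-fold lower in the latter. Sgsh, the heparan N-sulfatase, stood at 34.7, 51.2, 37.5 and 37.5 CPM in mast cells and 22.3, 15.05, 24.3 and 17.4 CPM in macrophages. Ids and Sgsh both act on heparan sulfate, a relative of the heparin stored in mast cell granules. Other members that act on it, Idua, Naglu and Gusb, were not lower in macrophages, with mean log2 ratios of 0.50, 0.73 and 2.89. The part of heparin in these levels was not tested. Cd63, the granule membrane marker of mast cells, stood at 1925, 1999, 2061 and 1754 CPM against 1353, 1003, 1298 and 1035 CPM, with log2 ratios of -0.51, -0.99, -0.67 and -0.76, so that it missed the rule in 1 library. With all shared barcodes left out Cd63 passed and Sgsh did not. Sgsh also fell short with marked doublets kept, a looser barcode filter, equal weight per cell and thinned cells. Ctsd at 1389.5, 1749.7, 1355 and 1426 CPM and Tpp1, the tripeptidyl peptidase, at 282, 395, 287 and 307 CPM were also well expressed there. The 2 Tom- mast groups held 38 and 46 cells, and Idua and Galns had 0 UMIs in the CD45- Tom- group, which allows up to 11.0 CPM (3 counts of 273190 UMIs).

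Of the other lists, 8 of 15 v-ATPase genes, 8 of 14 other enzymes, 5 of 12 transporters and 4 of 7 sorting genes were higher in macrophages than in mast cells in every library, and Slc38a9 (-1.12) and Gnptab (-1.12) were lower. The list ends were Atp6v0d2 (3.83) and Atp6v1h (-0.45), Acp5 (5.49) and Galc (-0.80), Tpcn2 (2.60) and Igf2r (4.49). Tfeb (mean log2 ratio 2.75) and Tfe3 were higher in macrophages while Mitf, the mast cell lineage factor, was lower (-0.98). Cst7, an inhibitor of cathepsins, was lower in macrophages (-7.20), and Cst3 and Cstb were higher.

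Plasma cells differed from macrophages in the same sense for nearly every gene. Of 41 members 38 were at least 1.5-fold higher in macrophages in every library and 0 lower, but 70.8% of all 8074 genes were higher and 5.36% lower, and the median of all genes was itself at log2 1.56, 1.36, 1.54 and 1.41. The members' median was 3.51, 3.53, 3.41 and 3.49. With the median of all genes set to 0 the counts were 30 higher and 3 lower, and without immunoglobulin genes 35 higher and 1 lower, so the direction of genes near the middle depends on the scaling. Ctsk, Cd68, Cd63, Lipa, Ctsl, Ctsd and Psap had log2 ratios above 5 in every library. In plasma cells Cd63 stood at 18.9, 17.6, 13.6 and 10.99 CPM, Cd68 at 9.58, 12.6, 9.13 and 9.62 CPM, Ctsk at 2.37, 4.92, 2.80 and 2.29 CPM and Lipa at 14.03, 16.9, 11.3 and 11.4 CPM. Ctsl stood at 43.3, 32.3, 34.1 and 29.3 CPM, Ctsd at 109, 116, 92.9 and 91.6 CPM, Psap at 145, 157, 115 and 127 CPM and Ctsh at 7.75, 14.1, 6.33 and 11.4 CPM. Hexa (mean log2 ratio 4.72) and Ids (3.92) were at the upper end of the glycosidases and sulfatases, while Galns (0.998), Ctsz (1.96), Tpp1 (4.22) and Lamp2 (1.90) were at the lower ends of their roles. Ppt1, the thioesterase of lipid-modified proteins, stood at 91.1, 78.7, 87.4 and 79.7 CPM in plasma cells and 92.02, 79.3, 96.8 and 78.7 CPM in macrophages, the smallest difference of the set, and Smpd1, the acid sphingomyelinase, at 18.2, 28.8, 14.97 and 20.1 CPM and 26.9, 24.4, 26.8 and 27.6 CPM. Ctsf had 0 UMIs in the plasma cells of the CD45+ Tom- library, which allows up to 1.37 CPM (3 counts of 2183681 UMIs). Of the other lists, all 15 v-ATPase genes, 13 of 14 other enzymes, 11 of 12 transporters, 6 of 7 sorting genes, all 3 transcription factors and both cystatins tested were higher in macrophages than in plasma cells, from Atp6v0d2 (7.54) to Aga (-0.37).

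**Figure D2:**
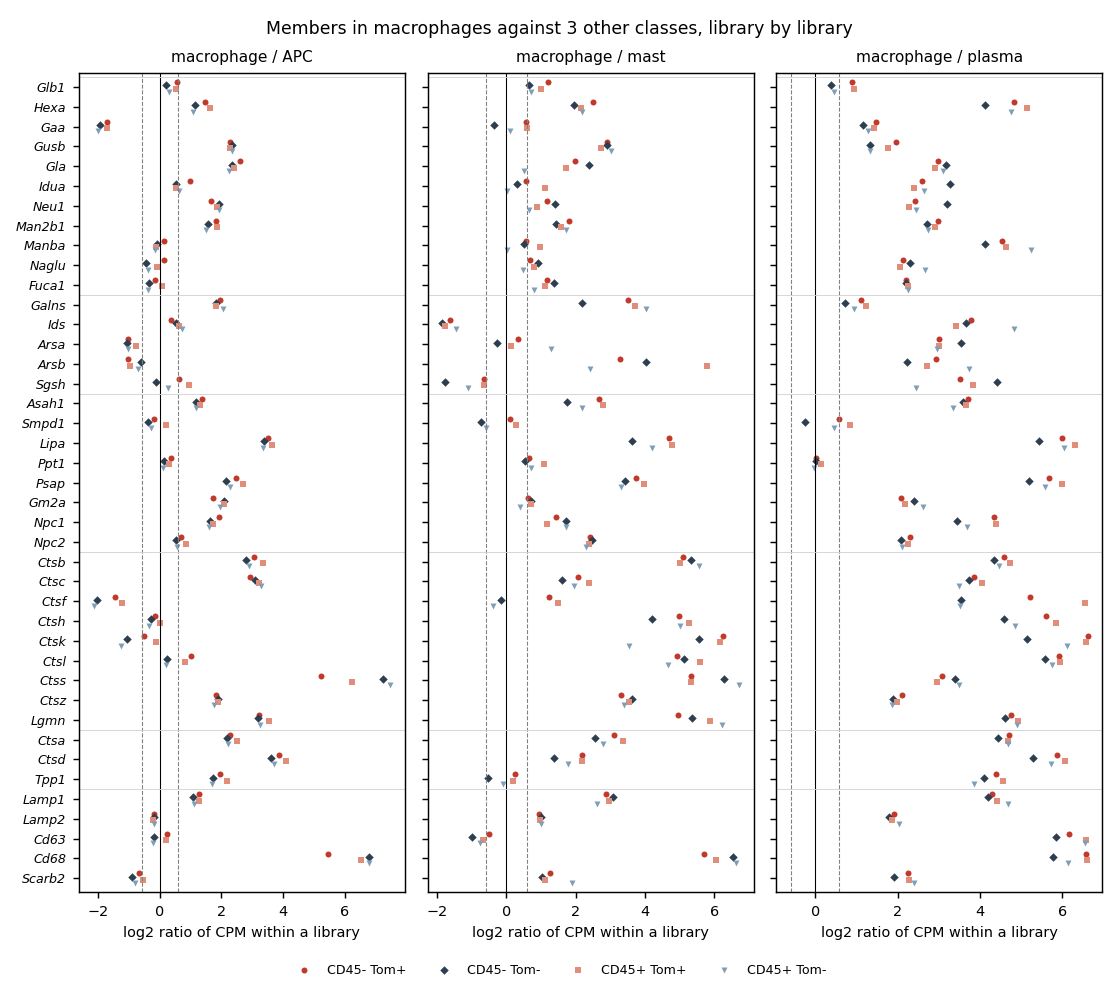
Log2 ratio of CPM in macrophages over APCs, mast cells and plasma cells for each member, 1 point per library, with dashed lines at 1.5-fold. Ctss and Cd68 lie furthest right against APCs, Gaa, Ctsf, Arsa and Arsb lie left of the line, Ids and Sgsh lie left against mast cells, and in the plasma panel the points are shifted right together.

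Within macrophages the members split by kind. Their share of UMIs was 4.22%, 3.92%, 4.00% and 3.85% in lipid-associated, 3.74%, 3.22%, 3.69% and 3.66% in resident and 3.35%, 2.63%, 3.39% and 2.79% in Arg1-high macrophages. Lipid-associated macrophages were highest and Arg1-high macrophages lowest in every library, and the highest Arg1-high value, 3.39%, was above the lowest resident value, 3.22%.

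From resident to lipid-associated macrophages, 5 members were at least 1.5-fold higher in every library (4.82% of 8366 genes were) and 4 were at least 1.5-fold lower (11.5% of genes were). The median log2 ratio of the members was -0.05, 0.08, 0.01 and -0.09, against -0.20, -0.21, -0.19 and -0.13 for all genes, so the middle of the set stayed near 0 while single members did not. Ctsk stood at 326, 381, 423 and 327 CPM in lipid-associated macrophages and 72.7, 79.6, 5.37 and 19.3 CPM in resident macrophages. The resident values of Ctsk came from 8 UMIs in the CD45+ Tom+ and 20 in the CD45+ Tom- library, and its log2 ratios were 2.17, 2.26, 6.30 and 4.08. Ctsl, the broad endopeptidase of lysosomes, went from 1069, 829, 1007 and 861 to 3622, 2871, 2795 and 2612 CPM, 2.77 to 3.46-fold. Cd68 went from 527, 399.8, 573 and 488 to 1174, 1189, 1131 and 1127 CPM and Cd63 from 784, 755, 791 and 808 to 1735, 1672, 1698 and 1639 CPM, with log2 ratios of 0.98 to 1.57 and 1.02 to 1.15. Lipa, at 1064, 968, 1071 and 983 CPM in lipid-associated and 622, 524, 646 and 599 CPM in resident macrophages, was 1.64 to 1.85-fold higher. None of these 5 genes overlapped between the kinds, but they were named because they passed, and overlap was not counted over all genes.

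Of the 4 members that were lower, 2 were sulfatases. Arsb stood at 20.5, 27.4, 18.8 and 27.4 CPM in lipid-associated against 94.7, 166, 74.4 and 134 CPM in resident macrophages, 3.96 to 6.06-fold lower. Ids was 2.60 to 2.88-fold lower, at 35.3, 40.2, 34.4 and 42.5 CPM against 98.5, 105, 93.2 and 122 CPM. Lamp2, a LAMP protein needed for fusion of autophagosomes and for chaperone-mediated autophagy, stood at 402, 416, 407 and 405 CPM against 797, 761, 744 and 725 CPM. Smpd1, at 23.1, 22.9, 21.8 and 20.4 CPM against 34.6, 34.8, 37.6 and 30.8 CPM, lay at the threshold, with log2 ratios of -0.59, -0.61, -0.78 and -0.60 and intervals that reached 0.15 and 0.02 in the Tom- libraries. Cd63 and Cd68 on the one hand and Lamp2 on the other, all abundant proteins of the lysosomal membrane, thus lay on opposite sides. Among members that passed in neither direction, Gla (0.51), Galns (0.55) and Ctsa (0.21) had the highest and Manba (-0.76), Ctsc (-0.58) and Tpp1 (-0.29) the lowest mean log2 ratios of their roles. Smpd1 lost its call under 9 of the alternatives tried, among them marked doublets kept, a looser barcode filter, a finer clustering (Leiden resolution 2), 4000 variable genes, other scalings and cells thinned to 2000 UMIs. Lamp2 did so at resolution 2, Ids with thinned cells, and Lipa with 4000 variable genes, with thinned cells and with all shared barcodes left out, where 4 members were higher and 4 lower.

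**Figure D3:**
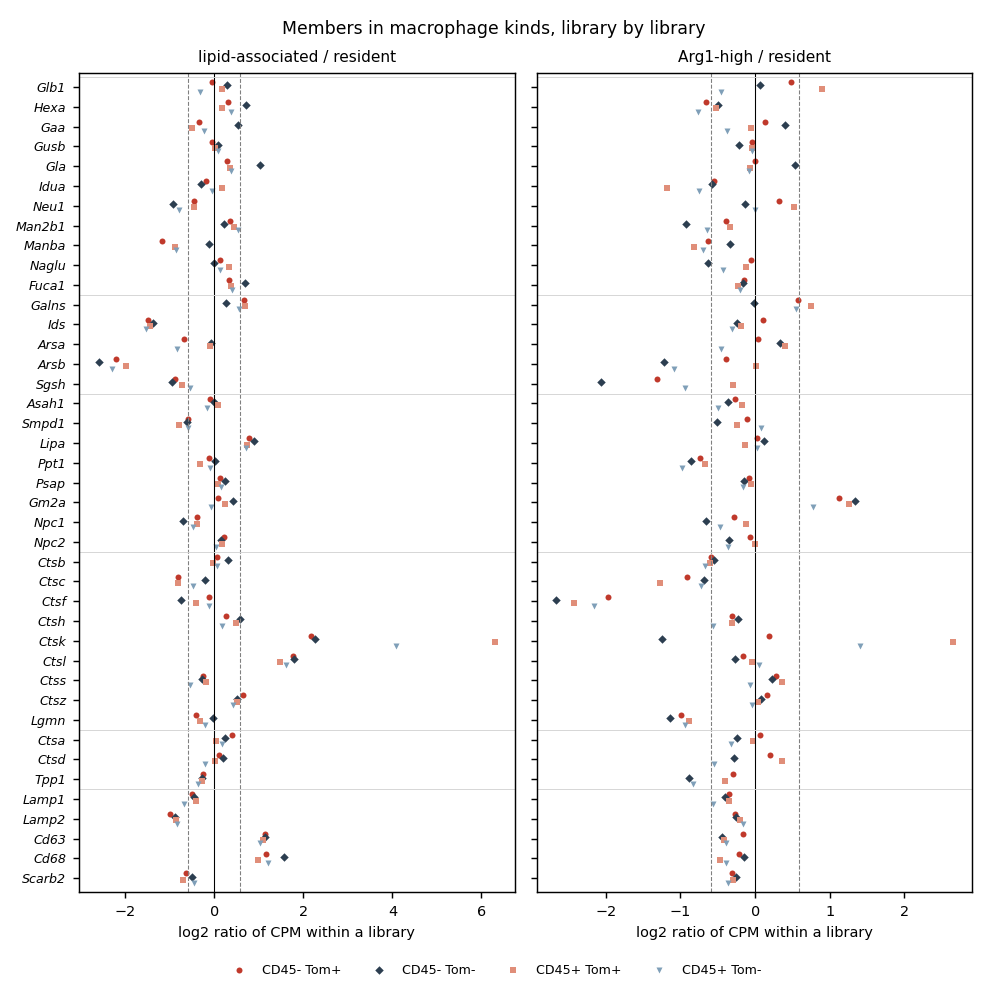
Log2 ratio of CPM within a library for each member, lipid-associated over resident macrophages on the left and Arg1-high over resident macrophages on the right, 1 point per library and dashed lines at 1.5-fold. Ctsk, Ctsl, Cd68, Cd63 and Lipa lie right and Arsb, Ids, Lamp2 and Smpd1 left in the first panel, and Gm2a lies right and Ctsf, Lgmn, Ctsc and Ppt1 left in the second.

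Related lists also held genes on both sides between these kinds. Of 16 v-ATPase genes, Atp6v0d2, the osteoclast and macrophage form of the d subunit (mean log2 ratio 2.42), and Atp6v0c were higher in lipid-associated macrophages and 0 were lower, with Atp6ap1 lowest at -0.54. Acp5, the tartrate-resistant acid phosphatase (1.32), and Pld3 were higher, and Hgsnat, the heparan acetyltransferase (-1.59), and Naaa were lower. Among transporters Tmem175, a lysosomal proton and potassium channel, was higher (1.10) and Slc17a5, the sialic acid exporter, lower (-0.75), and among sorting genes Grn was lower (-0.75) with Gnptg at 0.66. Of the transcription factors, Tfeb was higher (1.03), at 39.1, 39.2, 41.6 and 49.9 CPM against 19.01, 14.9, 22.1 and 28.9 CPM, while Tfe3 was lower, at 64.1, 72.3, 64.04 and 64.9 CPM against 113, 129, 109.99 and 105 CPM, and Mitf had a mean of -0.79. The cystatins Cst3 (0.67) and Cstb (0.42) did not pass 1.5-fold in every library.

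From resident to Arg1-high macrophages few members passed 1.5-fold. The members' median log2 ratio lay below 0 in all 4 libraries, but it changed sign with the looser barcode filter. Of the 41 members 1 was at least 1.5-fold higher in every library (2.57% of 8338 genes were) and 4 were lower (5% of genes were), and the median of the members was -0.16, -0.28, -0.18 and -0.39 against -0.07, -0.07, -0.13 and -0.02 for all genes. The higher one was Gm2a, the activator that lifts GM2 ganglioside out of membranes for hexosaminidase, at 471, 469, 518 and 458 CPM against 216, 186, 216 and 268 CPM, 1.71 to 2.53-fold. Hexa, the hexosaminidase subunit it serves, had log2 ratios of -0.66, -0.49, -0.52 and -0.76, lower in Arg1-high macrophages in all 4 libraries. Ctsf stood at 8.07, 6.81, 6.26 and 6.24 CPM against 31.6, 43.1, 33.5 and 27.9 CPM, 3.91 to 6.34-fold lower, and Lgmn at 1047, 788, 1072 and 957 CPM against 2092, 1743, 1976 and 1843 CPM, 1.84 to 2.21-fold lower. Ctsc stood at 456, 399, 376 and 423 CPM against 857, 639, 909 and 701 CPM and Ppt1 at 63.8, 57.9, 75.7 and 55.9 CPM against 106, 105, 121 and 109.8 CPM. Neither overlapped between the kinds, but both were named because they passed, and overlap was not counted over all genes. Ctsb passed in 3 of the 4 libraries, with ratios of -0.59, -0.55, -0.61 and -0.67, while Ctsk went both ways, at 0.19, -1.24, 2.65 and 1.40. Ppt1 fell short with marked doublets kept, with 4000 variable genes and with the median of all genes set to 0, Ctsc with doublets kept and Lgmn with the looser barcode filter, while Ctsf was too low to enter at a minimum of 20 CPM. The lowest means among the other roles were those of Idua (-0.77), Sgsh (-1.15), Tpp1 (-0.61) and Lamp1 (-0.42), and the highest those of Glb1 (0.25), Galns (0.46), Ctsd (-0.07) and Lamp2 (-0.22).

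Of the other lists, 0 of 15 v-ATPase genes and 0 of 12 transporters passed in either direction against resident macrophages, with Atp6v0a1 lowest (-0.53) and Atp6v0e highest (0.32) among the first and Cln3 (-0.62) and Ostm1 (0.18) among the second. Galc, Hgsnat and Pla2g15 (-1.18) were lower while Acp5 had the highest mean (0.87). Sort1, the sortilin receptor (1.43), and Gnptab, which builds the mannose 6-phosphate tag, were higher, with Grn at -0.65. Tfeb (0.23), Tfe3 (-0.31), Cstb (0.36) and Cst3 (-0.38) did not pass.

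Looser filtering of barcodes (at least 500 genes and under 20% mitochondrial UMIs) gave 10 members higher and 8 lower in lipid-associated than in resident macrophages, where 9.31% of 8675 genes were higher and 18.8% lower. In Arg1-high macrophages it gave 7 higher and 5 lower, where 9.84% of 8703 genes were higher and 14.2% lower. Once the members themselves were used in clustering, no cluster took the name of resident macrophages, and neither comparison could be made.

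Glb1 lies on chromosome 9 (114401076 to 114474898, plus strand, mm10). Its first exon overlaps the gene Tmppe on the same strand, far from the 3′ end that the assay reads, and its promoter letters are printed above. Glb1 varied less between classes than most members, with a ratio of 4.24 between the mean of the highest class, macrophages, and the lowest, B cells. Macrophages stood at 62.4, 51.6, 61.5 and 56.1 CPM, mesothelial cells at 43.9, 46.8, 40.9 and 43.6 CPM and APCs at 41.98, 45.01, 42.8 and 45.5 CPM. The intervals of mesothelial cells and APCs overlapped in every library, so these neighbours in the order did not differ beyond counting error. Plasma cells stood at 33.7, 39.4, 32.2 and 40.8 CPM and mast cells at 27.1, 32.9, 30.9 and 34.1 CPM, followed by T, NK and innate lymphoid cells (14.6 to 25.1 CPM), blood endothelial cells (14.4 to 19.4 CPM) and B cells (11.7 to 15.5 CPM).

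The place of plasma cells in that order rests on the scaling. With immunoglobulin genes left out of the total, Glb1 stood at 70.8, 72.1, 65.7 and 75.1 CPM in plasma cells and 64.3, 51.7, 63.3 and 56.2 CPM in macrophages, so plasma cells came first. By the same rule as other members, Glb1 was higher in macrophages than in mast cells, with log2 ratios of 1.20, 0.65, 0.99 and 0.72. It lost that call with the median of all genes set to 0 and with equal weight per cell. Glb1 was not past 1.5-fold in every library against APCs (0.57, 0.20, 0.52 and 0.30) or plasma cells (0.89, 0.39, 0.93 and 0.46). Over the 8 classes and 4 libraries, 32 points that share libraries and depth, the members whose log2 level was most like that of Glb1 were Npc2 (r = 0.78), Lamp2 (0.76) and Naglu (0.73), and the least like was Neu1 (-0.21), a subunit of the same complex as beta-galactosidase.

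Outside the named classes, a cluster led by Saa3 and Cxcl13, with mesothelial markers and APC genes among its leading ones, had Glb1 at 59.99, 66.7, 53.3 and 78.5 CPM in 195, 251, 79 and 242 cells. The same cluster had the transcript of the p16 gene Cdkn2a at 35.2, 27.2, 39.6 and 36.7 CPM, where APCs had 3.64, 5.73, 6.27 and 6.42 CPM and macrophages 6.26, 5.90, 5.34 and 5.42 CPM. Within APCs, the cluster led by Dcn and Ogn had Glb1 at 27.9, 37.9, 24.6 and 39.3 CPM and Cdkn2a at 1.07 to 1.93 CPM. Its Glb1 was lower in the Tom+ than in the Tom- library of both pairs. The separate intervals overlapped within each pair, which does not settle whether the libraries differ, and the difference was not tested. In libraries with at least 30 cells, the other APC clusters had Glb1 at 50.1, 50.8 and 50.9 CPM with Cdkn2a at 2.52 to 4.05 CPM (led by Col4a1), at 46.7, 48.5 and 49.8 CPM with Cdkn2a at 5.64 to 11.8 CPM (led by Serping1), and at 45.2 and 45.9 CPM with Cdkn2a at 26.6 and 19.4 CPM (led by Col1a1).

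**Figure D4:**
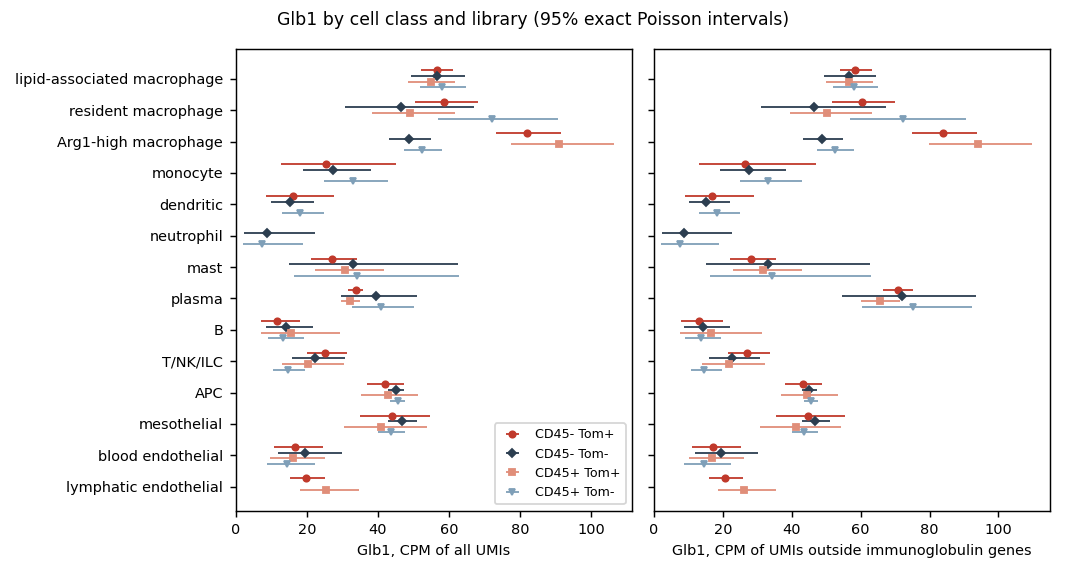
Level of Glb1 in each class and macrophage kind, 1 point per library with at least 30 cells and bars for the exact Poisson 95% interval, on all UMIs (left) and on UMIs outside immunoglobulin genes (right). The Arg1-high row splits by Tom, at 82.0 and 91.1 CPM against 48.7 and 52.4 CPM, and plasma cells move to 65.7 to 75.1 CPM in the right panel.

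The question of the sort was how cells with p16 history differ from the rest, so the members were compared between Tom+ and Tom- libraries within a class, once in the pair labelled CD45- and once in the pair labelled CD45+. In the macrophage class as a whole 0 members passed 1.5-fold in both pairs in either direction, where 1.75% of 8789 genes were higher and 2.43% lower. Ctsl had log2 ratios of 0.76 and 0.41, Ctsd of 0.49 and 0.34 and Glb1 of 0.27 and 0.13. The mix of kinds moved with Tom: lipid-associated cells were 53.4% and 48.8% of macrophages in the Tom+ libraries and 31.7% and 32.0% in the Tom- libraries, and Arg1-high cells 24.2% and 24.7% against 60.6% and 58.5%. With all shared barcodes left out 4 members were higher in both pairs, Ctsf, Ctsk, Ctsl and Cd68, where 2.76% of 8758 genes were higher and 3.44% lower.

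In lipid-associated macrophages 0 of 41 members passed in either direction (0.893% of 8626 genes were higher and 0.754% lower), and the members' median was 0.00 and -0.00, against -0.04 and -0.05 for all genes. Glb1 stood at 56.6, 56.5, 54.8 and 58.02 CPM, with log2 ratios of 0.00 and -0.08 and intervals of -0.22 to 0.23 and -0.32 to 0.16. Psap had ratios of 0.24 and 0.15 and Ctsd of 0.24 and 0.11, and Arsb (mean -0.48) and Manba (-0.37) were lowest. None of the genes of the related lists passed, with Naaa (-0.49) and Aga (0.28) furthest from 0. Differences of 1.5-fold in Glb1 thus lay outside the counting interval in both directions.

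In resident macrophages 0 members were higher (2.62% of 8632 genes were) and 1 was lower (1.89% of genes were). This was Arsb, at 94.7, 166, 74.4 and 134 CPM, both Tom+ values below both Tom- values, with log2 ratios of -0.81 and -0.85. Arsb was named because it passed, and such separation was not counted over all genes. It was not past 1.5-fold in both pairs with the marked doublets kept or with 4000 variable genes, and it went to 0.037 and 0.11 with cells thinned to 2000 UMIs. Glb1, at 58.7, 46.4, 48.96 and 72.2 CPM in 163, 40, 99 and 63 cells, had ratios of 0.34 and -0.56, on opposite sides of 0. Ctsk had the lowest mean (-0.99), Gla (0.47) and Ctsc (0.40) the highest, and of the related genes Acp5 alone passed, lower in Tom+ cells (-0.74).

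Arg1-high macrophages were the kind with members higher in Tom+ libraries: 3 of 41 passed in both pairs (1.36% of 8537 genes did) and 0 were lower (1.19% of genes were). They were Glb1, Ctsd and Sgsh, and whether the Tom ratio differs between the kinds was not tested. Glb1 stood at 81.97, 48.7, 91.1 and 52.4 CPM, with log2 ratios of 0.75 and 0.80 and counting intervals of 0.51 to 0.99 and 0.52 to 1.07. Both of its Tom+ values were above both Tom- values, but Glb1 is a gene that passed in both pairs. Such separation was not counted over all genes. Ctsd stood at 6703, 3871, 7401 and 4252 CPM with ratios of 0.79 and 0.80, and Sgsh at 15.4, 9.14, 27.3 and 14.6 CPM with ratios of 0.75 and 0.91. Ctsd shares coding exons on its strand with the predicted gene Gm49369, so its counts can be split between them.

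By direction alone, 28 of 41 members were higher in both pairs in Arg1-high macrophages and 1 was lower, against 20.1% and 42.2% of all genes. The higher ones included Psap (0.41 and 0.33) and Ctsb (0.25 and 0.18). The members' median was 0.20 and 0.14, against -0.04 and -0.11 for all genes. In lipid-associated macrophages 13 members were higher in both pairs and 13 lower, against 19.7% and 38.2% of all genes, and in resident macrophages 14 were higher and 12 lower, against 25.4% and 29% of all genes. Of the related lists in Arg1-high macrophages, Atp6v0d2 alone passed, at 99.1, 51.4, 106 and 66.99 CPM (mean log2 ratio 0.80), with Atp6v1b2 lowest of the v-ATPase genes (-0.10), Pla2g15 (0.52) and Naaa (-0.35) at the ends of the other enzymes, Slc17a5 (0.27) and Cln3 (-0.24) of the transporters, and Sort1 (0.42) and Igf2r (-0.12) of the sorting genes.

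Several values moved with these differences. In Arg1-high macrophages the markers of resident macrophages summed to 660, 346, 609 and 452 CPM, those of lipid-associated macrophages to 10847, 8607, 9989 and 9741 CPM, general macrophage markers to 6146, 4954, 6001 and 5018 CPM, peritoneal macrophage markers to 114, 60.4, 135 and 83.8 CPM, and plasma cell markers to 2156, 540, 2105 and 520 CPM, with none of these markers at 0. APC markers summed to 83.8, 342, 82.5 and 354 CPM there, with 1 and 2 of 10 at 0 in the Tom+ libraries. The part of all these in the result was not tested. Glb1 itself fell short of 1.5-fold in a pair under 4 alternatives: the looser barcode filter (0.38 and 0.19), members used in clustering (0.55 and 0.36), cells thinned to 2000 UMIs (0.94 and 0.24) and all shared barcodes left out (0.56 and 0.93). Under those other than the looser filter Ctsd stayed past the rule, between 0.67 and 0.85, and with the looser filter it was at 0.49 and 0.55. Sgsh was at 0.67 and 0.34 with marked doublets kept, at 0.67 and 0.49 at Leiden resolution 2, at 0.64 and 0.54 with the looser filter and at 0.55 and 0.87 with all shared barcodes left out, so that Ctsd alone passed in the last case.

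**Figure D5:**
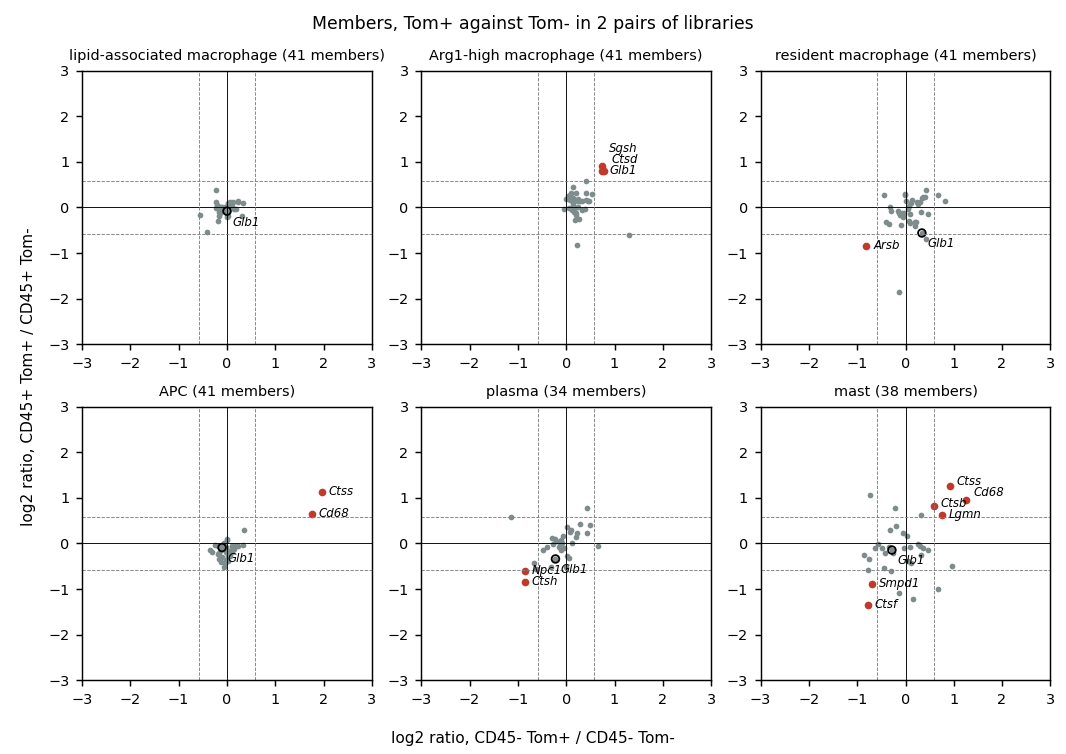
Log2 ratio of each member between Tom+ and Tom- libraries, the pair labelled CD45- on the x axis and the pair labelled CD45+ on the y axis, in 6 classes or kinds, with dashed lines at 1.5-fold and Glb1 circled where it did not pass and red points for members past 1.5-fold in both pairs. The lipid-associated panel is centred on 0, Glb1, Ctsd and Sgsh lie together in the upper right of the Arg1-high panel, and Ctss and Cd68 do so among APCs.

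In APCs 2 of 41 members were higher in Tom+ cells in both pairs (0.868% of 9682 genes were) and 0 were lower (0.31% of genes were). These were Ctss, at 66.1, 16.9, 30.99 and 14.1 CPM, and Cd68, at 20.8, 6.18, 9.59 and 6.16 CPM, with log2 ratios of 1.97 and 1.14 and 1.75 and 0.64. Laptm5, a lysosomal protein of blood cells, had the highest mean of the transporters (1.08) but did not pass in both pairs. All 3 are leukocyte genes, and the macrophage markers summed to 419 against 174 CPM and 206 against 173 CPM in these pairs. Their part in the result was not tested. With all shared barcodes left out 0 members were higher. Glb1 did not differ beyond counting error in APCs, at 41.98, 45.01, 42.8 and 45.5 CPM with ratios of -0.10 and -0.09 and intervals of -0.30 to 0.09 and -0.37 to 0.18, and the members' median was -0.02 and -0.12.

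In plasma cells 34 members were abundant enough for a ratio, and 0 were higher (0.745% of 6172 genes were) while 2 were lower (4.37% of genes were). They were Npc1, the lysosomal cholesterol transporter, at 6.18, 11.2, 5.72 and 8.70 CPM, and Ctsh, an aminopeptidase, at 7.75, 14.1, 6.33 and 11.4 CPM. Npc1 had log2 ratios of -0.86 and -0.60 and Ctsh of -0.86 and -0.85, and the Tom- values rest on 40 and 58 cells. Npc1 lost its call under 6 and Ctsh under 4 of the 11 alternatives that gave a value. Igf2r, the mannose 6-phosphate receptor, alone of the related genes was lower (mean -1.08). Glb1, with ratios of -0.22 and -0.34, had intervals of -0.61 to 0.19 and -0.67 to 0.00. In this class Tom- libraries hold few cells and, in other classes such as macrophages, Tom+ libraries hold more immunoglobulin UMIs, which cannot be told apart from Tom. With all shared barcodes left out too few plasma cells remained for a comparison.

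In mast cells 38 members entered, of which 4 were higher (4.15% of 8333 genes were) and 2 lower (5.48% of genes were). The higher ones, Ctsb, Ctss, Lgmn and Cd68, had log2 ratios of 0.59 and 0.82 for Ctsb, 0.92 and 1.26 for Ctss, 0.76 and 0.63 for Lgmn and 1.26 and 0.96 for Cd68. Macrophage markers in mast cells summed to 281 against 201 CPM and 245 against 167 CPM, and their part was not tested. With all shared barcodes left out Asah1 was lower too. Smpd1 (-0.70 and -0.89) and Ctsf (-0.78 and -1.34) were lower, each with intervals that held 0 in both pairs, as did those of Lgmn and Cd68. Cd68 rested on 2 UMIs in each Tom- library, with intervals of -0.67 to 4.35 and -1.11 to 4.11, and Ctsf had intervals of -2.17 to 0.95 and -2.90 to 0.38. Glb1, with ratios of -0.28 and -0.14, had intervals of -1.29 to 0.91 and -1.16 to 1.02, which leave a difference of 1.5-fold in either direction within counting error.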

How the data were processed

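Stromal vascular cells of gonadal fat were sorted into 4 libraries, 1 per group, and read with 3′ droplet single-cell RNA sequencing. The deposited values are counts: whole numbers of UMIs per gene and cell barcode, which the authors made with Cell Ranger 3.0.2 on mm10 with a tdTomato row added (per the labels), and which were neither normalized nor pooled. Barcodes per library numbered 3429 to 11255 with 64083756 to 139397501 UMIs.

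Barcodes with 1000 to 7000 genes and under 8% mitochondrial UMIs were kept. Simulated doublets were used to score cells in each library. The top 0.8% of kept cells per 1000 deposited barcodes (54 to 427 cells) were left out. Cells were normalized, reduced to 2000 variable genes without the members and related lists, to 30 components and 15 neighbours, and clustered (scanpy 1.11.5, leidenalg 0.10.2, resolution 1). Names came from the fixed markers, with at least 3 raised, and a cluster led by markers of another class stayed unnamed.

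UMIs were summed per class and library and given as CPM with exact Poisson 95% intervals. A log2 ratio of 2 sums has an exact conditional (Clopper-Pearson) 95% interval (scipy 1.17.1). These intervals cover counting error only. With 1 library per group no test of a condition was made and no p-value is given. A gene entered a comparison with a mean of at least 5 CPM over both sides and counted when past 1.5-fold in 1 direction in every library with at least 30 cells of both classes, or in both Tom pairs. The pair labelled CD45+ is a second look and no replicate. On simulated counts with 200 of 8916 genes changed 2-fold, the macrophage against APC comparison found 95% of doubled and 88% of halved genes, and the macrophage against mast comparison 67% and 64%.

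Named with values were Glb1, up to 8 members per direction that passed in a comparison, and the highest and lowest gene of each role and related list. The members and lists were chosen with earlier results of these data known. A score over cells was not used, and barcodes shared by libraries were kept in the main values. Promoter windows came from RefSeq on GRCm38.p6. Alternatives tried were kept doublets, a looser filter, another resolution, more variable genes, members used in clustering, other scalings, equal weight per cell, thinning to 2000 UMIs and a minimum of 20 CPM. Leaving out shared barcodes or single libraries was added after seeing the data.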

Additional observations from a re-analysis of the deposited data

How the results depend on the processing

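Of 318 counts of members recomputed under the alternatives, 282 stayed within 1.5 times the value in the report and 36 did not, and the cause was not tested. With marked doublets kept, 1 member was lower in macrophages than in mast cells, and in Tom+ cells 0 were lower in resident macrophages, 1 higher in APCs, 1 higher and 0 lower in plasma cells, and 0 higher and 4 lower in mast cells. With the looser filter, 10 were higher and 8 lower in lipid-associated and 7 higher in Arg1-high than in resident macrophages, 1 lower in macrophages than in mast cells, and in Tom+ cells 0 higher in Arg1-high macrophages and 1 higher in mast cells. At resolution 2, 1 was lower in Tom+ plasma cells, and with 4000 variable genes 0 were lower in Tom+ resident macrophages. Without immunoglobulin genes, 1 was lower in macrophages than in plasma cells, and 1 higher and 1 lower in Tom+ plasma cells. With the median of all genes at 0, 3 were lower in macrophages than in plasma cells, 1 higher in Tom+ macrophages, and 2 higher and 1 lower in Tom+ plasma cells. With equal weight per cell, 2 were higher in Tom+ macrophages and 3 in Tom+ plasma cells. With cells thinned to 2000 UMIs, 2 were higher in Tom+ macrophages, 1 in lipid-associated and 1 in resident macrophages, 3 in plasma cells, and 1 higher and 8 lower in mast cells. With at least 20 CPM, fewer genes entered, and 1 was higher in Tom+ APCs, 0 lower in plasma cells and 1 lower in mast cells. With all shared barcodes left out, 4 were higher in Tom+ macrophages, 1 in Arg1-high macrophages and 0 in APCs.

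Some log2 ratios changed sign. In the pair labelled CD45+, mast cells had Cd68 at -1.31, Ctsb at -0.10 and Lgmn at -0.56 with doublets kept, and Lgmn at -0.012 with the looser filter. The members' median of Arg1-high over resident macrophages was 0.020 with the looser filter. With thinned cells Arsb stood at 0.037 and 0.11 in resident macrophages, Ctsh at 0.57 and Npc1 at 0.11 in plasma cells of the pair labelled CD45+, and Cd68 at -0.66 in mast cells of the pair labelled CD45-. Leaving out 1 library at a time gave 5 higher and 4 to 5 lower for lipid-associated, and 1 higher and 4 to 6 lower for Arg1-high over resident macrophages. It gave 21 higher and 4 to 5 lower against APCs, 38 and 0 against plasma cells, and 27 to 30 higher and 2 to 3 lower against mast cells.

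Comparisons with resident macrophages could not be made with members used in clustering, nor the Tom comparison of resident macrophages with the looser filter or of plasma cells without shared barcodes, for want of cells or clusters. No paired analysis was possible because each group holds 1 library, and the Tom pairs are given side by side. The 38 to 58 Tom- plasma or mast cells per library limit what the depth can show there.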

Other observations

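Smaller classes and single clusters also carried Glb1. Monocytes, with too few cells in the Tom+ library labelled CD45+, had it at 25.3, 27.3 and 33.0 CPM in the other libraries, and dendritic cells at 16.2, 15.2 and 18.2 CPM. Neutrophils had it at 8.75 and 7.37 CPM in the Tom- libraries, and lymphatic endothelial cells at 19.8 and 25.5 CPM in the Tom+ libraries. The cluster led by Saa3 and Cxcl13, whose Glb1 and Cdkn2a levels stand in the report, had Cdkn1a, the p21 gene, at 104, 73.0, 127 and 142 CPM. Its cells had a median of 31694 UMIs, and the part of doublets in it was not tested.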
